A study of Mus musculus with 9 samples.

Results

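Gapdh, Gk, G6pd2 and Hprt are 4 of the 15 reference genes that the single-colour array used in this study prints many times over, among 59709 transcripts with a probe. They were taken by the RefSeq identifier of their probe and not by its signal, although earlier results of these data were known. Each has 1 probe printed at 20 positions. Primary cortical neurons from E15 Swiss albino mouse embryos were harvested after 2, 4, 6 or 8 days of culture (called Day 2 to Day 8), with no deprivation and no reperfusion. Further Day 6 cultures were kept in glucose-free salt solution at low oxygen (oxygen-glucose deprivation, OGD, a culture model of ischemia) for 2, 4, 6 or 8 hr and then for 24 hr in medium without B27 supplement, called reperfusion. The 0 hr OGD cultures were also Day 6 neurons, handled in the same way but without the deprivation, so they were 24 hr older than Day 6 at harvest and had lacked B27 for that time. All 9 conditions are one strain, with no genetic change. According to the methods, the arrays of Days 2 to 8 and of 0, 2 and 4 hr OGD each received a pool of RNA from 4 experiments, and nothing of the kind is stated for 6 and 8 hr.

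Each condition was measured on 1 array, so there is no replicate of a condition and no test between 2 conditions was possible. No test between groups of conditions was run, and no p-value is given. The only spread is that among the 17 to 20 spots of a probe that were kept on an array, which is technical. It is given as an SD, and a difference between 2 arrays is given with the combined spot SD, the root of the summed squares of both. Values are log2 signals after quantile normalization over the 9 arrays, and a signal log ratio (SLR) is the difference of 2 such values, with 1 as the threshold the study's methods used. All 4 genes were well above background at every kept spot of every array, and 0 of their spots were saturated. The number of arrays limits the precision. In RNA from whole cultures, fewer cells of a type and less RNA per cell cannot be told apart.

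The arrays differed in ways that touch these values. The arrays of Day 2 and Day 4 come from one scan and the other 7 from another, so day and scan cannot be told apart where Day 2 or Day 4 is compared with later days. Day 4 stood apart, with 54.4% of the spots of the array's negative probes called well above background against 0.833% to 9.58% on the other arrays. The labels call the cells cortical neurons. The study reports that its E15 cultures stained for neuronal markers and not for glial or progenitor markers. Of 15 marker genes listed for neurons, astrocytes, microglia, oligodendrocytes and neural progenitors, 0 are named by a probe in the files, so the label could not be checked on these arrays. Likewise, of 37 genes listed for glycolysis, the pentose phosphate pathway, glycerol use and purine salvage, 4 are named by a probe, and they are the 4 genes described here.

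The 4 genes stand in different parts of intermediary metabolism. Gapdh (glyceraldehyde-3-phosphate dehydrogenase) carries out the step of glycolysis that reduces NAD+ and joins phosphate to the triose. Gk (glycerol kinase) phosphorylates glycerol to glycerol-3-phosphate, which can enter glycolysis or lipid synthesis. Glucose-6-phosphate dehydrogenase opens the pentose phosphate pathway, the main source of NADPH for keeping glutathione reduced. The usual enzyme is made from the X-linked gene G6pdx, and G6pd2 is an autosomal copy without introns, best known from the testis. Hprt (hypoxanthine guanine phosphoribosyltransferase) returns hypoxanthine and guanine to the nucleotide pool and is highly active in brain. Gapdh and Hprt are both widely used to scale measurements of other genes, which is why their own levels during maturation and ischemia matter. The study scaled its qPCR to Gapdh, having found no significant difference in the qPCR cycles of Gapdh between its time points. That is another measure than the array signals described here. Genes of glycolysis are classical targets of the hypoxia-inducible factors.

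The stretches of 250 bases before the start of each gene are shown because the 4 genes fell into 2 pairs on the arrays after OGD (below 0 hr for Gapdh and Hprt, above it for Gk and G6pd2). They are RefSeq promoter sequences of GRCm38.p6, matched by symbol for 4 of 4 genes and printed 5′ to 3′ on the strand of the gene. Gapdh lies at chr6:125165774-125166023 on the minus strand, Hprt at chrX:52987828-52988077 on the plus strand, Gk at chrX:85776820-85777069 on the minus strand and G6pd2 at chr5:61808593-61808842 on the plus strand. Capitals mark matches, on either strand, to the core of the hypoxia-response element (ACGTG or GCGTG) or to a GC box (GGGCGG).
Gapdh: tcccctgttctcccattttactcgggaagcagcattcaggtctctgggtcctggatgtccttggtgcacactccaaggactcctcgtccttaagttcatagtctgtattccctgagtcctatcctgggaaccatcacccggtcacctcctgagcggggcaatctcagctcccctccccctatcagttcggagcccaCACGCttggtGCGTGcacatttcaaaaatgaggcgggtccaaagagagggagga
Hprt: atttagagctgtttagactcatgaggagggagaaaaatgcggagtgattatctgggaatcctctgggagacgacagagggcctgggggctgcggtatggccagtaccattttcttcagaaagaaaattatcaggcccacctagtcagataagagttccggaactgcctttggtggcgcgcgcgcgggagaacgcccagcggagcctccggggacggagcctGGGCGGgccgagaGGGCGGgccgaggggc
Gk: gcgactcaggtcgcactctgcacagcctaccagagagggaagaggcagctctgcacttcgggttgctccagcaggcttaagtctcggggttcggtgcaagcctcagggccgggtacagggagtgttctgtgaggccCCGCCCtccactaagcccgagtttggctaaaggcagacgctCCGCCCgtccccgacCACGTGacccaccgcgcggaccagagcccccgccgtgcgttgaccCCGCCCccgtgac
G6pd2: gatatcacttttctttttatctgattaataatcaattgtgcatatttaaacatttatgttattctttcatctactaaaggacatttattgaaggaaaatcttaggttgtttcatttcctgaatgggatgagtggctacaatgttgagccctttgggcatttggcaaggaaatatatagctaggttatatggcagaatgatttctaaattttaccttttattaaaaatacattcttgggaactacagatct

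The matches are given for each gene, and whether they bear on the signals was not tested. The hypoxia-response core had 2 matches in Gapdh, at 54 to 50 and 44 to 40 bases before the start, and 2 in Gk that overlap each other at 58 to 53 bases before it. Hprt and G6pd2 had 0. Of all 32851 promoter stretches of this length, 38.6% hold at least 1 match. The GC box had 3 matches in Gk, 2 in Hprt and 0 in Gapdh and G6pd2, and 32.7% of all stretches hold at least 1. TATAAA, also searched on both strands, had 0 matches in the 4 genes and at least 1 in 12.4% of all stretches. These matches describe letters, not binding.

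G6pd2 differed most in base composition. Its stretch held 30.0% G and C, with 0 CG dinucleotides, and 1.47% of all stretches held less G and C. The share was 55.6% for Gapdh, 59.6% for Hprt and 67.2% for Gk, all above the median of 52.4%, and 60.1%, 71.1% and 86.5% of all stretches held less. G6pd2 and G6pdx also share a run of 27 bases, shown because it is the longest run that the promoter windows of 300 bases of the copy and its parent gene have in common. In G6pd2 it runs from 10 bases before the start to base 17 of the transcript, and in G6pdx from base 16 to base 42 of the transcript.
G6pd2 and G6pdx: ctacagatctgtgaacgtgtttggcag
Of the 35 bases compared from the first base of this run, 34 were identical, and 2 of the 32851 windows hold the run. The comparison stopped at the nearer window end, so the rest of the 2 transcripts was not compared. The sequence of the array's G6pd2 probe is not in the files used here, so how far its signal comes from G6pdx transcripts was not tested, and what follows is the signal of the probe named for G6pd2.

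**Figure D1:**
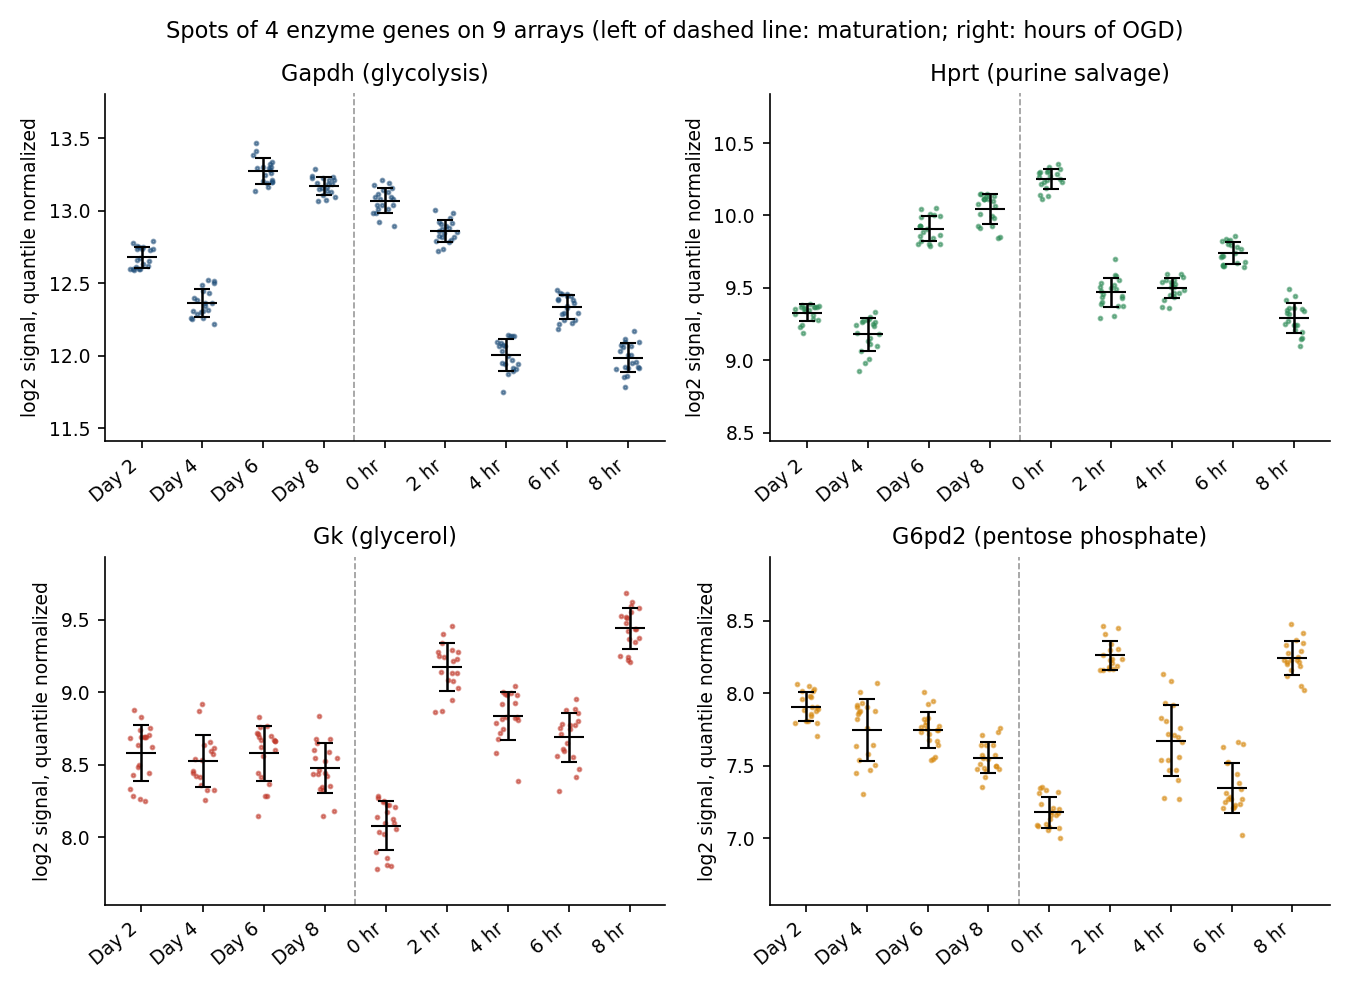
Log2 signal (vertical axis, quantile normalized) of every kept spot of Gapdh, Hprt, Gk and G6pd2 on the 9 arrays (horizontal axis), as points, with the mean as a horizontal mark and the SD over spots as a bar. Gapdh and Hprt lie lower on the 4 OGD arrays than on Day 6, Day 8 and 0 hr, Gk lies higher, and G6pd2 is highest at 2 and 8 hr.

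Gapdh, the glycolytic enzyme, was at 12.68 ± 0.072 on Day 2 and 12.36 ± 0.095 on Day 4, against 13.27 ± 0.088 on Day 6 and 13.17 ± 0.060 on Day 8 (log2 signal, mean ± SD over 19 or 20 spots). It was at 13.07 ± 0.086 without deprivation (0 hr), 12.86 ± 0.076 after 2 hr, 12.01 ± 0.11 after 4 hr, 12.34 ± 0.083 after 6 hr and 11.98 ± 0.10 after 8 hr of OGD. With quantile normalization its 3 highest arrays were thus Day 6, Day 8 and 0 hr, and its 3 lowest were the 4, 6 and 8 hr OGD arrays. Within the order of levels, Day 6 and Day 8, Day 8 and 0 hr, Day 4 and 6 hr, and 4 and 8 hr lay within their combined spot SD of each other. Every spot of the 4 hr and 8 hr arrays lay below every spot of the other 7 arrays. With scaling to the 75th percentile in place of quantile normalization Day 4 was the lowest array instead, and 6 hr lay above Day 2.

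Hprt, the purine salvage enzyme, was at 9.33 ± 0.058 on Day 2 and 9.18 ± 0.12 on Day 4, against 9.91 ± 0.088 on Day 6 and 10.04 ± 0.10 on Day 8. In the OGD series it was at 10.25 ± 0.068 without deprivation, then at 9.47 ± 0.099 after 2 hr, 9.50 ± 0.070 after 4 hr, 9.74 ± 0.074 after 6 hr and 9.29 ± 0.10 after 8 hr. The highest array was 0 hr, followed by Day 8 and Day 6, and the 8 hr array stood next to Day 2 and Day 4 at the low end. Neighbours that did not differ beyond their spot spread were Day 8 and Day 6, 4 and 2 hr, Day 2 and 8 hr, and 8 hr and Day 4.

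Gk, the glycerol enzyme, spanned 0.10 in log2 during maturation (0.94 with scaling to the 75th percentile in place of quantile normalization), with 8.58 ± 0.19 on Day 2 and 8.53 ± 0.18 on Day 4, and with 8.58 ± 0.19 on Day 6 and 8.48 ± 0.17 on Day 8. It was lowest at 0 hr, 8.08 ± 0.17 (with the 75th percentile on Day 4). After OGD it reached 9.17 ± 0.17 after 2 hr, 8.83 ± 0.17 after 4 hr, 8.69 ± 0.17 after 6 hr and 9.44 ± 0.14 after 8 hr. The 4 OGD arrays were its 4 highest. In the order of levels the steps from 8 hr to 2 hr, from 2 hr to 4 hr and from Day 8 to 0 hr were larger than the combined spot SD. The 4 hr and 6 hr arrays and the 4 maturation arrays followed one another within it.

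G6pd2, the copy of a pentose phosphate enzyme gene, had low signals, from 142 to 308 before normalization. It was at 7.91 ± 0.100 on Day 2 and 7.75 ± 0.21 on Day 4, and at 7.75 ± 0.12 on Day 6 and 7.56 ± 0.11 on Day 8. At 0 hr it was at 7.18 ± 0.11, its lowest level (with the 75th percentile Day 4 was lower). After OGD it was at 8.26 ± 0.10 (2 hr), 7.67 ± 0.25 (4 hr), 7.35 ± 0.17 (6 hr) and 8.24 ± 0.12 (8 hr). The 2 and 8 hr arrays were the highest, above the next array (Day 2) by more than the combined spot SD, and did not differ from each other beyond it. The steps from Day 2 to Day 6, Day 4, 4 hr and Day 8 were each within the combined spot SD, as was that from 6 hr to 0 hr.

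During maturation, with quantile normalization, Gapdh and Hprt had more signal on Days 6 and 8 than on Day 2, while Gk and G6pd2 did not. The SLR of Gapdh on Days 4, 6 and 8 relative to Day 2 was -0.32 ± 0.12, 0.60 ± 0.11 and 0.49 ± 0.094 (± combined spot SD). Hprt gave -0.15 ± 0.13, 0.58 ± 0.11 and 0.72 ± 0.12 on the same days. The Day 6 values correspond to 1.51-fold for Gapdh and 1.49-fold for Hprt, and both genes were higher at every spot position compared, 19 of 19 and 18 of 18. In Gk the differences were -0.054 ± 0.27, -0.0026 ± 0.27 and -0.10 ± 0.26, all smaller than the combined spot SD. G6pd2 was slightly lower, by SLR of -0.16 ± 0.24, -0.16 ± 0.16 and -0.35 ± 0.15, and on Day 8 it was lower at 19 of 19 positions. The difference of G6pd2 on Day 8 kept its sign under every alternative tried, but with the 75th percentile it was -0.038, within the combined spot SD. The other differences of Gk and G6pd2 did not, and scaling to the 75th percentile put Gk at 0.43 and G6pd2 at 0.17 on Day 6, and scaling to the 9 other reference genes put Gk at 0.39, G6pd2 at 0.43 and Hprt at 0.20 on Day 4.

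None of these 12 differences passed SLR 1. Among all probes well above background on both arrays, 34.3% passed it on Day 4 relative to Day 2, 9.80% on Day 6 and 10.5% on Day 8. The Day 4 differences have to be read against a median of -0.37 over those probes. All 4 genes lay above it with quantile normalization, whereas with the 75th percentile Gapdh, Hprt and Gk lay below that scaling's median, Gapdh by 0.61, and with normexp, another background correction, Gapdh did. Between Day 6 and Day 8, which share a scan, the 4 SLR ranged from -0.19 for G6pd2 to 0.14 for Hprt, and that of G6pd2 was the one larger than its combined spot SD (0.17). With the 75th percentile Hprt was at -0.011 instead, and Gapdh at -0.37, larger than its combined spot SD (0.11). With scaling to the other reference genes Gapdh was at -0.28, also larger, and G6pd2 at -0.11, within its own. Here 3.10% of all probes passed SLR 1. With scaling to the 75th percentile of each array in place of quantile normalization, Gapdh and Hprt differed from Day 2 by 1.15 and 1.13 on Day 6, past the threshold, as were Hprt on Day 8 (1.12) and Gapdh on Day 4 (-1.10).

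After OGD the genes lay on opposite sides of 0 hr, as the plot of spots shows. Gapdh and Hprt were lower on all 4 OGD arrays and Gk and G6pd2 were higher on all 4. The exception among the ways of scaling was Gapdh at 2 hr, which was higher by 0.099 with scaling to the 9 other reference genes. Of the 16 differences, 15 exceeded the combined spot SD and 6 passed SLR 1, 4 of them upward. The one within the spot SD was G6pd2 at 6 hr, which lay beyond it with the 75th percentile (0.22) and with the other reference genes (0.28). Of all probes, 20.5% passed SLR 1 in either direction at 2 hr and 15.4% at 4 hr, against 7.76% at 6 hr and 27.4% at 8 hr, so that a gene past the threshold is common on the 2 and 8 hr arrays. Lying on one side of 0 hr was common among the 9 other reference genes too. With quantile normalization Actb, Nono, Ppia, Tfrc and Tuba1b were lower on all 4 OGD arrays and B2m was higher. Hsp90ab1, Rpl13a and Tbp lay on both sides. The share of all probes on one side of 0 hr on all 4 arrays was not computed.

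The SLR of Gapdh relative to 0 hr was -0.21 ± 0.12, -1.06 ± 0.14, -0.73 ± 0.12 and -1.09 ± 0.13 for 2, 4, 6 and 8 hr. The signal was thus 2.09-fold lower at 4 hr and 2.12-fold lower at 8 hr, at 20 of 20 spot positions on each array. Of the probes well above background on both arrays, 94.2%, 93.2% and 92.5% had a higher SLR than Gapdh at 4, 6 and 8 hr. At 2 hr the share was 60.3%, and the spots of the 2 arrays overlapped. Against Day 6 the 4 SLR were -0.41 ± 0.12, -1.27 ± 0.14, -0.94 ± 0.12 and -1.29 ± 0.13, and against Day 8 they were -0.31 ± 0.097, -1.17 ± 0.12, -0.84 ± 0.10 and -1.19 ± 0.12. With quantile normalization Gapdh was therefore lower on each OGD array whichever of these 3 arrays it was set against, and most so at 4 and 8 hr. With the 75th percentile the 2 hr values were -0.98 relative to Day 6 and -0.61 relative to Day 8. Those at 6 hr were -0.75 and -0.38.

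Hprt had SLR of -0.78 ± 0.12, -0.75 ± 0.098, -0.51 ± 0.10 and -0.96 ± 0.12 at 2, 4, 6 and 8 hr relative to 0 hr. The 8 hr signal was 1.95-fold lower, at 19 of 19 positions. None of the 4 passed SLR 1, although with scaling to the 75th percentile those at 2, 4 and 8 hr did (-1.26, -1.09 and -1.39). With quantile normalization the 0 hr array was the highest of all for this gene. Against Day 6 the differences were smaller, -0.44 ± 0.13, -0.41 ± 0.11, -0.17 ± 0.12 and -0.62 ± 0.14, and against Day 8 they were -0.58 ± 0.14, -0.54 ± 0.12, -0.30 ± 0.13 and -0.75 ± 0.15. All 12 were negative, and all 12 were larger than the combined spot SD. Those at 6 hr were within it with the 75th percentile, at -0.014 relative to Day 6 and -0.0027 relative to Day 8. Others grew with that scaling, to -0.92 and -0.75 at 2 and 4 hr relative to Day 6 and -0.91 at 2 hr relative to Day 8.

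Gk had SLR of 1.09 ± 0.24, 0.76 ± 0.24, 0.61 ± 0.24 and 1.36 ± 0.22 on the same 4 arrays relative to 0 hr. This is 2.13-fold at 2 hr and 2.57-fold at 8 hr, with 19 of 19 spot positions higher on each of the 4 arrays and no overlap of the spots. Of the probes compared, 90.7% had a lower SLR at 2 hr and 94.4% at 8 hr. As with Hprt, the 0 hr array was the extreme one with quantile normalization, here the lowest. Against Day 6 the SLR were 0.60 ± 0.25, 0.26 ± 0.25, 0.11 ± 0.25 and 0.86 ± 0.24, and against Day 8 they were 0.70 ± 0.24, 0.36 ± 0.24, 0.21 ± 0.24 and 0.96 ± 0.22. The sign was the same against all 3 arrays, but 0 of the 8 differences from Day 6 and Day 8 passed SLR 1, and those at 6 hr were within the spot spread. Scaling to the 75th percentile put the 6 hr values beyond it, at 0.27 and 0.45, and the 2 and 4 hr values against Day 6 (0.22 and 0.0027) and the 4 hr value against Day 8 (0.18) within it.

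For G6pd2 the 4 SLR relative to 0 hr were 1.08 ± 0.15, 0.49 ± 0.27, 0.17 ± 0.20 and 1.06 ± 0.16. The 2 and 8 hr signals were 2.12-fold and 2.09-fold higher, at 17 of 17 and 19 of 19 positions. Against Day 6 it was higher at 2 hr (0.51 ± 0.16) and 8 hr (0.49 ± 0.17), within the spot spread at 4 hr (-0.076 ± 0.28) and lower at 6 hr (-0.40 ± 0.21). Against Day 8 the same 4 arrays gave 0.71 ± 0.15, 0.12 ± 0.27, -0.21 ± 0.20 and 0.69 ± 0.16. This gene therefore did not keep one direction, and at 4 and 6 hr its sign depended on the array it was compared with. The small 4 hr values also changed sign with the scaling, to 0.046 against Day 6 with the other reference genes and to -0.049 against Day 8 with the 75th percentile.

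**Figure D2:**
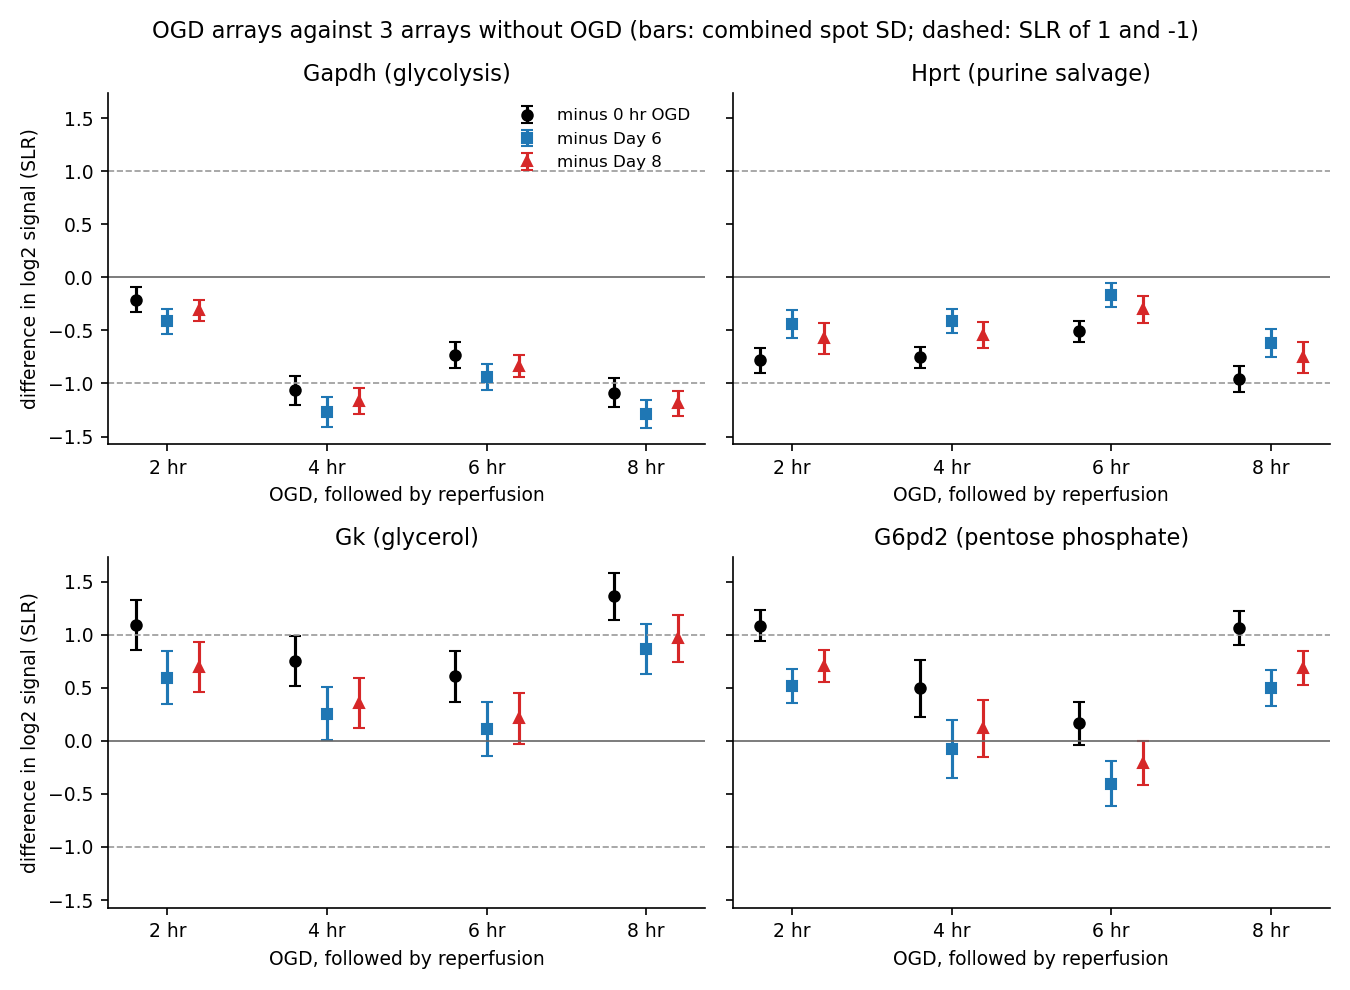
Difference in log2 signal (SLR, vertical axis) between each OGD array (horizontal axis, hours of OGD) and the 0 hr, Day 6 and Day 8 arrays for the 4 genes, with bars of the combined spot SD and dashed lines at 1 and -1. The 4 hr and 8 hr points of Gapdh lie past -1 against all 3 arrays, and the Gk and G6pd2 points lie past 1 against 0 hr alone, at 2 and 8 hr.

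The 0 hr array itself differed from Day 6 and Day 8. It had less G6pd2 (SLR -0.57 ± 0.16 relative to Day 6 and -0.38 ± 0.15 relative to Day 8) and less Gk (-0.50 ± 0.25 and -0.40 ± 0.24). Hprt was higher on it, by 0.34 ± 0.11 and 0.21 ± 0.12, although scaling to the other reference genes put it at 0.049 relative to Day 6 and -0.031 relative to Day 8. Gapdh had SLR of -0.20 ± 0.12 and -0.10 ± 0.11, or -0.67 and -0.39 with the other reference genes. None of these 8 passed SLR 1. Over all probes 9.55% did relative to Day 6 and 2.90% relative to Day 8. With quantile normalization the 0 hr array thus lay, for Gk, G6pd2 and Hprt, on the far side of Day 6 and Day 8 from the 8 hr OGD array, and at 8 hr the difference from 0 hr was larger than that from either day. With the other reference genes this did not hold for Hprt.

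Against Day 6 and Day 8, the 32 differences of the 4 deprived arrays held 4 past SLR 1, all of them Gapdh at 4 and 8 hr. With the 75th percentile Hprt at 8 hr also passed it, at -1.05 relative to Day 6 and -1.04 relative to Day 8. Over all probes, 5.40%, 6.30%, 4.14% and 10.7% passed it at 2, 4, 6 and 8 hr relative to Day 6, and 7.94%, 8.04%, 5.47% and 10.7% relative to Day 8. At 4 hr, 97.9% of probes had a higher SLR than Gapdh relative to Day 6 and 96.1% relative to Day 8. At 8 hr these shares were 97.5% and 97.3%.

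Another way to compare is to ask which genes had all 4 OGD arrays on one side of the 3 arrays without deprivation, Day 6, Day 8 and 0 hr, which share their scan. Gapdh ran from 11.98 to 12.86 on the OGD arrays and from 13.07 to 13.27 on the others, a gap of 0.21. Hprt ran from 9.29 to 9.74 against 9.91 to 10.25, a gap of 0.17, and Gk from 8.69 to 9.44 against 8.08 to 8.58, a gap of 0.11. G6pd2 overlapped, from 7.35 to 8.26 against 7.18 to 7.75. Of 17664 probes well above background on these 7 arrays, 9.64% lay above on all 4 OGD arrays and 9.13% below. Among the 9 other reference genes, 1 gene lay on one side, Ppia, a peptidyl-prolyl isomerase, which was lower. Without the 0 hr array 3 of the 9 other reference genes lay on one side, Ppia below and Hsp90ab1, a chaperone, and Tfrc, the transferrin receptor, above, while 12.9% of all probes lay above and 10.3% below. With scaling to the other reference genes Gapdh no longer lay on one side. With the 75th percentile the gaps of Hprt and Gk were 0.0027 each, and that of Gapdh was 0.37.

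Ratios between the genes within an array do not change when each array is scaled by 1 factor, but quantile normalization does change them, so they were computed from signals that were not normalized. The pairs Gapdh with Hprt and Gk with G6pd2 kept closer to each other than any mixed pair. Over the 9 arrays the ratio of Gapdh to Hprt spanned 1.87-fold and that of Gk to G6pd2 1.90-fold. The mixed ratios spanned 5.34-fold (Gapdh to Gk), 4.95-fold (Gapdh to G6pd2), 5.17-fold (Gk to Hprt) and 4.80-fold (G6pd2 to Hprt), each with its extremes at 0 hr and 8 hr.

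Relative to 0 hr, the ratio of Gapdh to Gk was lower by 2.43-fold, 3.35-fold, 2.15-fold and 5.34-fold after 2, 4, 6 and 8 hr, which in log2 is -1.28 ± 0.26, -1.74 ± 0.28, -1.10 ± 0.28 and -2.42 ± 0.26. The ratio of Gk to Hprt was higher by 1.95 ± 0.27, 1.56 ± 0.27, 1.09 ± 0.28 and 2.37 ± 0.26 on the same arrays (log2 ± combined spot SD). For G6pd2 to Hprt the changes were 2.09 ± 0.19, 1.41 ± 0.29, 0.57 ± 0.25 and 2.26 ± 0.20. In these signals the smallest change of each of the 3 ratios was at 6 hr and the largest at 8 hr. After quantile normalization the smallest change of Gapdh to Gk was at 2 hr instead (-1.30, against -1.34 at 6 hr). The 0 hr array was an extreme of these ratios too. Relative to Day 6 the ratio of Gapdh to Gk was still lower on all 4 arrays, by 2.29-fold, 3.16-fold, 2.02-fold and 5.03-fold. The ratio of Gk to Hprt was higher relative to Day 6 at 2, 4 and 8 hr and within the spot spread at 6 hr (0.28 ± 0.30). For G6pd2 to Hprt the 6 hr array turned direction relative to Day 6, with -0.34 ± 0.27, or -0.24 after quantile normalization, within the spot spread. Relative to Day 8 it was within that spread (-0.14 ± 0.26, and 0.092 after quantile normalization).

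Gapdh and Hprt, the 2 members most used for scaling, had nearly the same ratio to each other at 0, 6 and 8 hr in these signals. The change from 0 hr was 0.66 ± 0.15 after 2 hr, -0.19 ± 0.15 after 4 hr, -0.013 ± 0.14 after 6 hr and -0.046 ± 0.16 after 8 hr. After quantile normalization the changes at 6 and 8 hr were -0.22 and -0.12, the first larger than the combined spot SD. Against Day 6 it looked different, with -0.057 ± 0.16 at 2 hr and -0.91 ± 0.17, -0.73 ± 0.16 and -0.77 ± 0.17 at 4, 6 and 8 hr, and the 0 hr ratio was itself at -0.72 ± 0.14 from Day 6. Gk to G6pd2 changed from 0 hr by -0.14 ± 0.29, 0.15 ± 0.37, 0.52 ± 0.36 and 0.11 ± 0.28, within the spot spread at 2, 4 and 8 hr, although after quantile normalization the 8 hr change was 0.30, larger than it. In maturation the ratio of Gapdh to Hprt was lower by 0.39 on Day 4 and by 0.34 on Day 8 (-0.17 and -0.22 after quantile normalization), and differed by 0.021 ± 0.15 on Day 6.

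**Figure D3:**
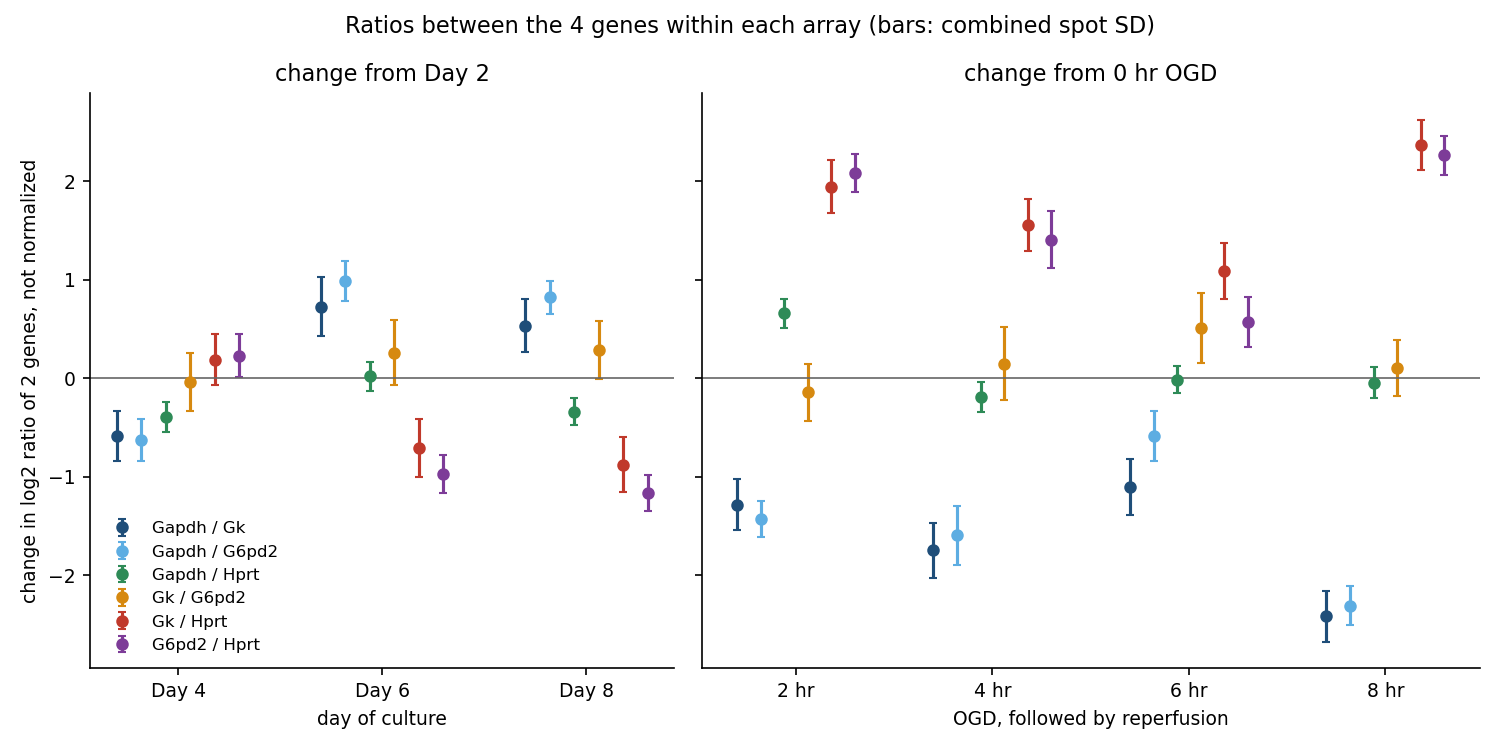
Change in the log2 ratio of each pair of the 4 genes within an array (vertical axis, signals not normalized), from Day 2 for Days 4 to 8 (left) and from 0 hr for 2 to 8 hr of OGD (right), with bars of the combined spot SD. In the right panel the ratios of Gapdh to Gk and to G6pd2 lie below 0 and those of Gk and G6pd2 to Hprt above 0 on all 4 arrays, farthest at 8 hr (-2.42 and 2.37 for the 2 ratios with Gk).

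For use in scaling, the range of a gene over conditions matters. The range from the lowest to the highest of the 9 arrays was 1.36 in log2 for Gk (2.57-fold), 1.29 for Gapdh (2.44-fold), 1.08 for G6pd2 (2.12-fold) and 1.07 for Hprt (2.10-fold), which ranks them 2, 4, 6 and 7 of the 13 reference genes that were well above background on every array. The 13 ranges ran from 0.66 to 1.39. These ranks depended on the scaling. With the 75th percentile Gapdh ranked 2, Hprt 3, Gk 10 and G6pd2 13, with ranges of 2.25, 2.18, 1.46 and 0.94. Of 17431 probes well above background on all 9 arrays, 48.2% had a smaller range than Gk, 42.7% than Gapdh, 26.7% than G6pd2 and 25.9% than Hprt. With quantile normalization but without Day 4 the range of Hprt was 0.96. Those of the other 3 were the same, since Day 4 was then the lowest array for Hprt alone.

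With quantile normalization the part of each range that came from either series differed. Gk spanned 0.10 over the 4 days of maturation and 1.36 over the 5 OGD arrays, and G6pd2 0.35 and 1.08. Gapdh spanned 0.91 and 1.09, and Hprt 0.86 and 0.96, and in maturation Day 4 was the lowest array of both. From Day 2 to their highest day these 2 genes differed by 0.60 (Gapdh, Day 6) and 0.72 (Hprt, Day 8). With the 75th percentile the spans of Gk were nearly equal, 0.94 and 0.98, and those of G6pd2 were 0.64 and 0.87, while maturation gave the larger span for Gapdh (2.25 and 1.44) and Hprt (1.84 and 1.39).

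**Figure D4:**
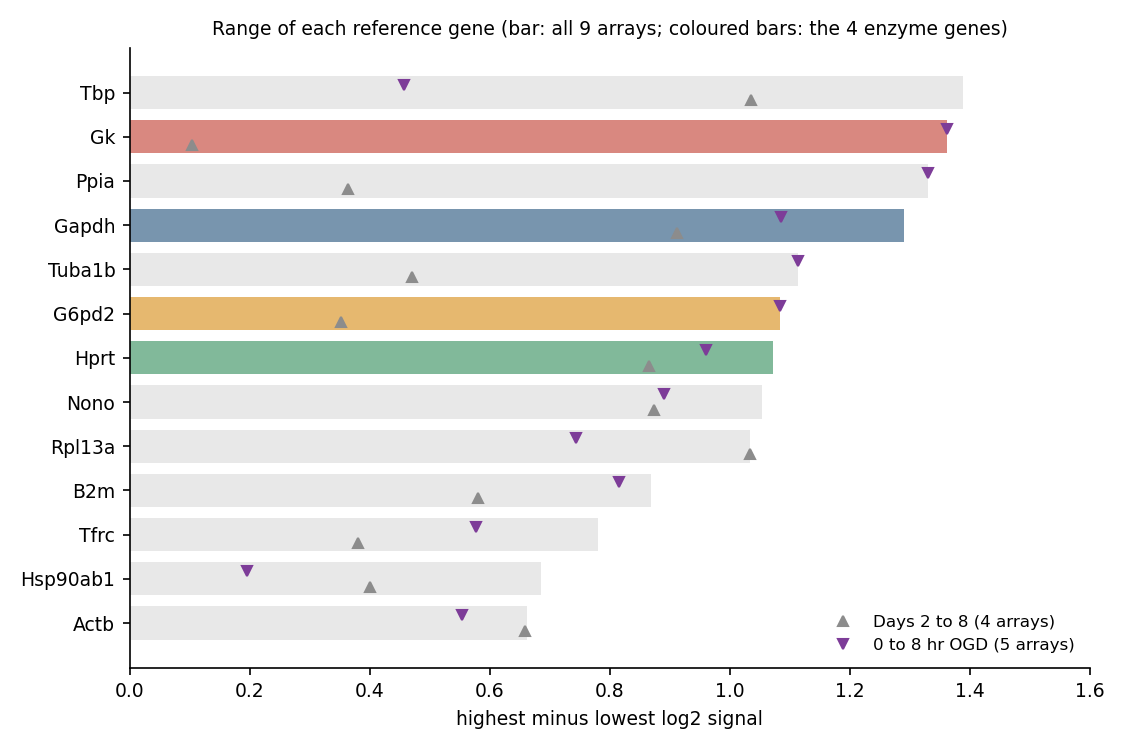
Highest minus lowest log2 signal (horizontal axis) of the 13 reference genes over all 9 arrays (bars, coloured for Gapdh, Hprt, Gk and G6pd2), over Days 2 to 8 (triangles pointing up) and over 0 to 8 hr OGD (triangles pointing down). The bars of the 4 genes run from 1.07 to 1.36, and the maturation triangle of Gk is at 0.10.

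The reference genes whose pattern was most like each member were found by the Pearson correlation of log2 signals over the 9 arrays, which share their normalization, so these values are descriptions. For Gapdh the nearest were Hprt (r = 0.70) and Ppia (r = 0.63), and for Hprt they were Ppia (r = 0.83) and Tuba1b, an alpha tubulin (r = 0.79). Gk was nearest to B2m, the light chain of MHC class I (r = 0.85), and to G6pd2 (r = 0.84), and G6pd2 to Gk and B2m (r = 0.77). Within the 4 genes the mixed pairs had negative values, from -0.27 for Gapdh and G6pd2 to -0.71 for G6pd2 and Hprt. These negative values depended on the scaling. With the 75th percentile the mixed pairs lay between -0.087 and 0.28, while Gapdh with Hprt was at 0.88 and Gk with G6pd2 at 0.78. With Spearman correlation 7 of the 8 nearest genes were the same.

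**Figure D5:**
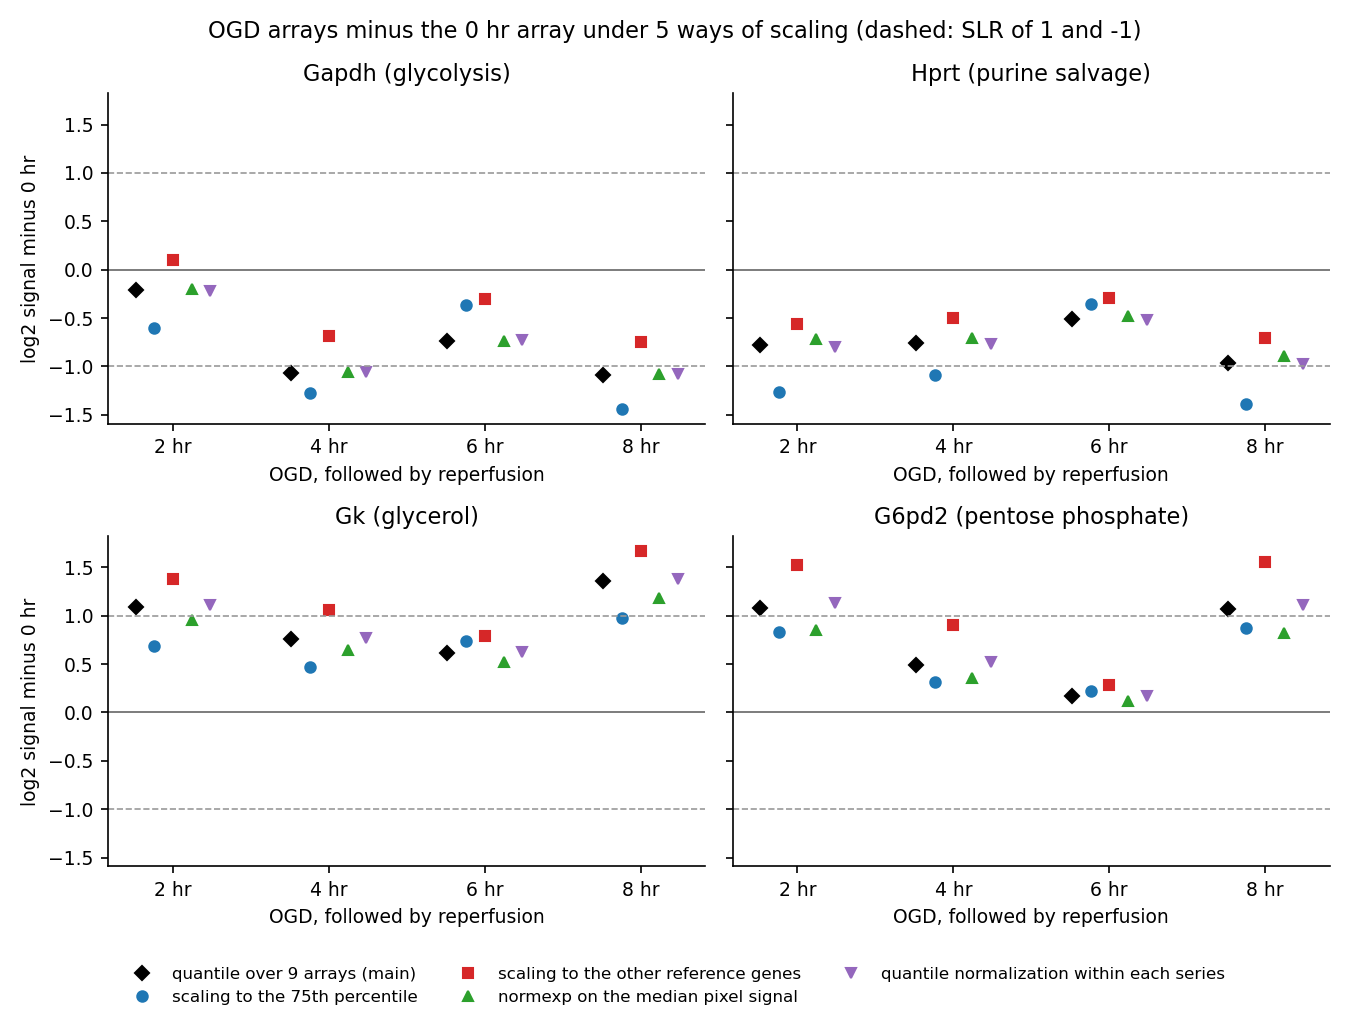
SLR relative to 0 hr (vertical axis) at 2, 4, 6 and 8 hr of OGD (horizontal axis) for the 4 genes under 5 ways of scaling the arrays, with dashed lines at 1 and -1. Each point of Hprt lies below 0 and each point of Gk and G6pd2 above 0, and for Gapdh the 2 hr point scaled to the other reference genes lies at 0.099.

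The directions relative to 0 hr held under the ways of scaling that were tried, apart from Gapdh at 2 hr, and the sizes did not. Of the 16 differences, 15 kept their sign under all 8 alternatives. Gapdh ran from -0.60 to 0.099 at 2 hr, from -1.28 to -0.69 at 4 hr and from -1.44 to -0.75 at 8 hr, with the 75th percentile at the low end and the other reference genes at the high end. At 6 hr it was at -0.37 and -0.31 with these 2 scalings. Gk ran from 0.68 to 1.38 at 2 hr, from 0.47 to 1.06 at 4 hr, where it passed SLR 1 with the other reference genes, and from 0.98 to 1.67 at 8 hr. For Hprt the highest values, with the other reference genes, were -0.56, -0.50, -0.29 and -0.71 at 2, 4, 6 and 8 hr. G6pd2 ran from 0.83 to 1.52 at 2 hr, from 0.32 to 0.91 at 4 hr, from 0.11 to 0.28 at 6 hr and from 0.82 to 1.56 at 8 hr. Of the 6 past SLR 1, the 4 of Gk and G6pd2 no longer passed with the 75th percentile and the 2 of Gapdh with the other reference genes, while Gk at 2 hr and G6pd2 at 2 and 8 hr did not with normexp (0.96, 0.85 and 0.82). During maturation 6 of 12 differences kept their sign under all alternatives, among them those of Gapdh on all 3 days and of Hprt on Days 6 and 8.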

How the data were processed

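Per the methods, mRNA was isolated from the total RNA of cultured neurons by depleting rRNA, copied with random primers into Cy3-labelled cRNA and hybridized to single-colour arrays, 1 per condition. The files deposited by the authors give spot intensity per array, background-corrected by Feature Extraction (version 11.0.1.1), with quality flags. Their table of normalized intensity (29929 probes) holds 0 of the probes of the 4 genes described here and was not used. Here, control spots and spots marked as non-uniform or population outliers were left out, intensities were taken as log2, quantile normalized over the 9 arrays after the methods, and averaged over spots. A probe was well above background where more than 50% of its spots were. Genes were named by RefSeq accession (15 of 15 matched). The named genes were the 4 members and, for each, the 2 reference genes with the highest Pearson correlation. Reference genes whose OGD arrays all lay on one side, with or without the 0 hr array, were named too. The remaining reference genes were named for their side of 0 hr. The members and lists were chosen with earlier results of these data known, although the rule that took the members used probe identifiers and not their signal. Each condition has 1 array, so no test was run. Normalization and counting were tested on simulated data. Those were scaled copies of the Day 2 array with noise and few changed probes. They checked the code and cannot show how well quantile normalization suits the real arrays, which differed more. Alternatives were scaling to the 75th percentile, scaling to the other reference genes, quantile normalization within each series, normexp (offset 50, limma), medians over spots, outlier spots kept, another detection filter, and 2 added after seeing the data (spots averaged first, Day 2 and Day 4 left out). The study's miRNA arrays, qPCR and staining were not analysed here. Software was R 4.3.3 (limma 3.58.1) and Python 3.11.15 (pandas 2.3.3, numpy 2.4.6, matplotlib 3.10.9).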

Additional observations from a re-analysis of the deposited data

How the results depend on the processing

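No paired analysis was possible because no group has a second array to pair, and no replicate could be left out. Counts of differences past SLR 1 moved by more than 1.5 times in 2 cases. With scaling to the 75th percentile, 4 of 12 passed in maturation, against 0, and with normexp 3 of 16 passed relative to 0 hr, against 6. Shares of all probes past SLR 1 are given here with quantile normalization alone. Passes under other settings therefore have no share of all probes to be read against. Ranges over the 9 arrays moved by more than a spot SD with scaling to the other reference genes, to 1.42 for Gapdh, 1.67 for Gk, 1.56 for G6pd2 and 0.85 for Hprt, and with the 75th percentile to 2.25 for Gapdh and 2.18 for Hprt. Differences larger than their combined spot SD that changed sign did so with the other reference genes, namely Gapdh at 2 hr relative to 0 hr (0.099), Hprt at 0 hr relative to Day 8 (-0.031) and Hprt on Day 4 relative to Day 2 (0.20). That scaling moved the median of all probes relative to 0 hr to 0.68 at 2 hr, 0.56 at 4 hr and 0.74 at 8 hr, from 0.047, -0.0022 and 0.16. Relative to those medians Gapdh was at -0.58, -1.25 and -1.49, Hprt at -1.25, -1.06 and -1.45, Gk at 0.70, 0.50 and 0.92, and G6pd2 at 0.84, 0.35 and 0.81. The cause of these changes was not tested. Of 524 recomputed SLR, 435 moved by less than the combined spot SD. The others were 53 with the 75th percentile, 31 that moved and 3 that changed sign with the other reference genes, and 2 with normexp. Keeping outlier spots, medians over spots, averaging spots first, leaving out Day 2 and Day 4, and normalizing within each series moved 0 SLR beyond it. The share of all probes past SLR 1 was 1.5 times as large or more in 15 of 18 comparisons when a probe needed to be above background on 1 of the 2 arrays. The authors' processed values could not be used, since they hold none of the probes of the 4 genes described here, and normexp on the mean pixel signal was not run. All 4 probes were well above background on each array.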
